A study of Mus musculus with 12 samples.

Results

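Open chromatin regions gained only in the metastatic niche of 4T1 lungs were chosen by a rule on peak calls. The 12 deposited peak lists were merged into 83727 regions, and a library held a region if any of its peaks overlapped it. Regions held by all 3 4T1 niche libraries and by none of the 3 4T1 distal libraries numbered 2170, or 2.59% of all regions. The rule left out the 348 of these that at least 5 of the 6 niche and at most 1 of the 6 distal libraries of both models held, so 1822 regions remained and are called niche-only regions below. Because the 4T1 calls chose them, their presence, strength and length in 4T1 libraries are given as a description with no test, and the comparisons tested are those within CT26.

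The cells were mouse alveolar type II (AT2) cells, taken from lung metastatic niche or distal tissue of BALB/c mice (6 to 8 weeks of age) on day 7 after 800000 labelled tumour cells were given by tail vein. Groups were AT2 cells of the niche and of distal lung in mice given 4T1, a BALB/c mammary carcinoma line, and the same pair of sites in mice given CT26, a BALB/c colon carcinoma line, with 3 independent samples in each. Each sample pooled 5 lungs, 50000 cells were sorted for each library, and every mouse carried tumour cells, so the distal cells are not those of a healthy lung. Omni-ATAC-seq reads out accessible DNA as the places where Tn5 transposase can insert adapters into nuclei, and gave 65373 ± 1597 peaks in 4T1 niche and 57404 ± 976 in 4T1 distal libraries, and 52655 ± 2498 in CT26 niche and 46808 ± 4206 in CT26 distal libraries (SD, n = 3 each). The lists hold no read counts, so a longer list cannot be told apart from a deeper library. All 14 loci of the AT2 marker list had a peak in each of the 4 groups.

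AT2 cells make surfactant and act as progenitors of the alveolus. After injury they can pass through a transitional state on the way to the flat alveolar type I cells, and transforming growth factor beta (TGF-beta), NF-kB and AP-1 are among the signals known in that setting. Regulatory DNA that opens on a stimulus commonly lies away from gene starts, whereas most starts of widely used genes are accessible at all times and CpG-rich. AP-1 dimers of the Fos and Jun families bind TGANTCA, and NF-kB dimers bind a longer motif flanked by runs of G and C.

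The 5 sequences below are the 250 bases before the RefSeq start of 5 genes whose start lies under a niche-only region. They were chosen to show gene starts with AP-1 letters (Ecm1, Hrh1, Ifi203), one with NF-kB matches only (Casp4) and one of the CpG-rich kind (Twist1). A gene can have several RefSeq starts, and the one used for Hrh1 lies inside the gene (chr6:114397936-114483298). Ecm1 encodes a secreted matrix glycoprotein, Hrh1 the histamine H1 receptor, Ifi203 an interferon-inducible protein of the p200 family, Casp4 the inflammatory caspase that responds to lipopolysaccharide in the cytosol, and Twist1 a transcription factor of mesenchyme. Capitals mark matches, on either strand, to AP-1 (TGANTCA), NF-kB, STAT (TTCNNNGAA), ISRE, TEAD (GGAATG), the GC box (GGGCGG) and the TATA box (TATAAA). Sequences are from RefSeq for GRCm38.p6, 5′ to 3′ along the gene, at chr3:95739570-95739819 (minus strand) for Ecm1, chr6:114458272-114458521 (plus) for Hrh1, chr1:173942673-173942922 (minus) for Ifi203, chr9:5308599-5308848 (plus) for Casp4 and chr12:33957421-33957670 (plus) for Twist1.
Ecm1: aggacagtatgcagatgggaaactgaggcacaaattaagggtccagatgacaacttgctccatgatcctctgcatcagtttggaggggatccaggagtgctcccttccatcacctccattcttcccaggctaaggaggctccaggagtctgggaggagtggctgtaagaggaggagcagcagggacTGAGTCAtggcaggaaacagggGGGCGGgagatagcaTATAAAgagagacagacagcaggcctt
Hrh1: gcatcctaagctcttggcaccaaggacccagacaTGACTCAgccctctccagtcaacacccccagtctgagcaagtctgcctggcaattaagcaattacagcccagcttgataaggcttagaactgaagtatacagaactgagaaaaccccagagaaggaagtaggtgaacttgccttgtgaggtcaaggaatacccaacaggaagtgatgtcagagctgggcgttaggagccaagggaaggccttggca
Ifi203: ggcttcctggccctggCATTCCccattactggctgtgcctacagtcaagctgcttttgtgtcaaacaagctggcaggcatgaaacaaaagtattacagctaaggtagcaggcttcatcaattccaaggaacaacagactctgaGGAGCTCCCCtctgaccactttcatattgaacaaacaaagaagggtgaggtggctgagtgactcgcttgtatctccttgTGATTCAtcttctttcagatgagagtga
Casp4: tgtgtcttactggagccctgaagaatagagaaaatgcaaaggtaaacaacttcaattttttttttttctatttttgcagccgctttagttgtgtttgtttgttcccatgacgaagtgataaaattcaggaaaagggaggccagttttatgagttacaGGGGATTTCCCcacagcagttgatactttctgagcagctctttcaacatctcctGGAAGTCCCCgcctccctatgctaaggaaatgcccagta
Twist1: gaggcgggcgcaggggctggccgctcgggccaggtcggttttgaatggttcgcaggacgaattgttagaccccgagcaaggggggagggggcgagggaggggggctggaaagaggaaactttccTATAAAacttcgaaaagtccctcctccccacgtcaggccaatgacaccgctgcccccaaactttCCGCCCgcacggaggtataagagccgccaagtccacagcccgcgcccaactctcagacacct

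In the Ecm1 sequence the AP-1 letters end 58 bases before the start, ahead of a GC box and a TATA box, and all 3 4T1 niche peaks cover them. The Hrh1 sequence holds AP-1 letters 210 bases before the start and no other match. In Ifi203 they lie 22 bases before the start, with an NF-kB match at 98 bases and a TEAD match at 229 bases. The Casp4 sequence holds 3 NF-kB matches, of which the pair at 83 and 84 bases overlap each other and the third lies at 30 bases. Twist1 has a TATA box and a GC box, no AP-1 or NF-kB match, and 18 CpG dinucleotides, against 1 each in Ecm1, Hrh1 and Ifi203 and 3 in Casp4.

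AP-1 letters were more frequent in the start windows of the niche-only regions than in start windows at large. Of the 73 start windows whose start lay under a niche-only region (70 genes of any kind), 18 held TGANTCA (24.7%). The share was 3 of 107 windows (2.8%) under the comparison regions, which are 3296 regions that just 3 of the 6 4T1 libraries held in any other combination (distal-only ones left out), 579 of 13683 (4.23%) under regions of all 12 libraries and 2217 of 32851 (6.75%) over all windows in the RefSeq table. NF-kB matches stood in 13 of the 73 windows (17.8%), 9.35% of those under comparison regions and 7.25% of all windows. TEAD letters (15.1%, against 12.6% of all windows) and STAT letters (5.48%, against 7.02%) were near the share of all windows, ISRE letters stood in 1.37%, against 2.98%, and GC boxes in 21.9%, against 32.7%. The windows also differed in base composition. The median ratio of observed to expected CpG was 0.28 under niche-only regions, 0.48 under comparison regions, 0.75 under regions of all 12 libraries and 0.37 over all windows, and its part in the AP-1 share was not tested. Of the 20 AP-1 matches, 12 lay under all 3 4T1 niche peaks and 3 under none. Matches were counted in each window, and windows of the same gene can overlap. The same site can therefore count more than once, as the NF-kB sites of Casp4 do. Beside Ecm1, Hrh1 and Ifi203, the named genes with AP-1 letters were Abr, Junos, Ksr1, Msh4, Ror2 and Smim14, and the rest were predicted gene models. The AP-1 share moved with 1 of the filters on weak peaks: with only peaks at a −log10 q of at least 5, 2 of 38 windows held the letters (5.26%), while 16 of 60 did at a −log10 q of at least 2 (26.7%) and 4 of 18 with every list reduced to the length of the shortest (22.2%).

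The niche-only regions were weak, narrow peaks beside all regions of their lists, as were the comparison regions. Ranked by the deposited −log10 p within each 4T1 niche list, where 100 is the strongest peak, their median percentile was 17.1, 20.1 and 20.0 in replicates 1, 2 and 3. Their median fold enrichment over the caller's background was 3.30, 3.58 and 3.54, against 4.48, 4.41 and 4.50 for all regions of the same lists, and their median length was 357, 381.5 and 369 bp, against 674, 702 and 650 bp. Comparison regions held by the same lists had median percentiles of 16.5, 14.4 and 16.4 and median lengths of 318, 321 and 306 bp. Averaged over the 3 lists, 67.2% of the niche-only regions stood below the 25th percentile and 27 above the 50th. Just outside the rule, the 3470 regions held by 2 of 3 4T1 niche and no 4T1 distal libraries had a median percentile of 13.2 in the lists that call them, and the 2239 held by 3 niche and 1 distal libraries had 22.7, with 18.7 for the niche-only regions. From the niche-only regions, the nearest 4T1 distal peak lay a median of 8558.5 bp away, and within 500 bp for 2 regions. The rule leaves out every region that a 4T1 distal peak touches, so small gaps are partly removed in advance. Whether some regions are edges of distal signal was not tested. The number of regions rested on the length of the lists. With every list reduced to its 42067 strongest peaks, the length of the shortest list, 387 regions met the rule, and 91 of the 1822 overlapped one of them.

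**Figure D1:**
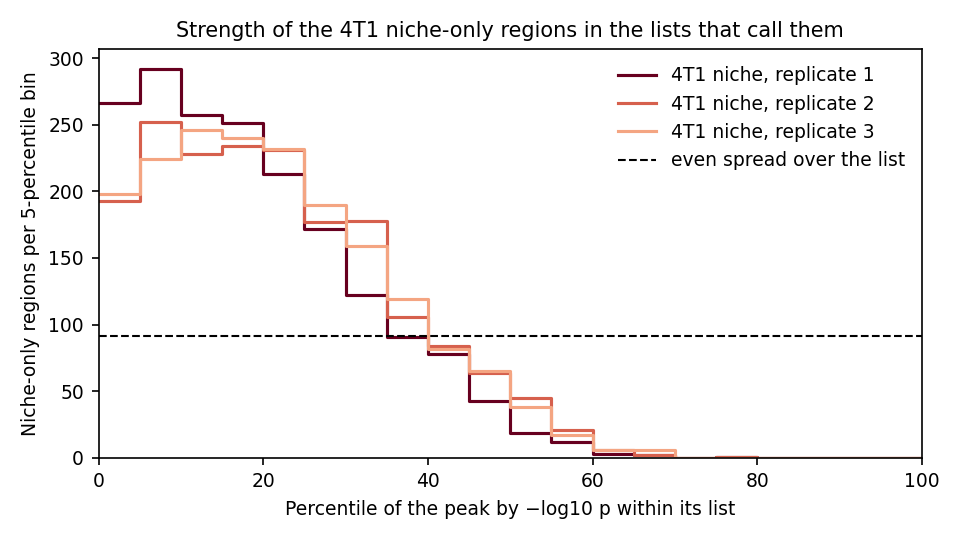
Niche-only regions per bin of 5 percentiles (vertical axis) by the percentile of their peak's −log10 p within the list that calls it (horizontal axis), with a line for each of the 3 4T1 niche libraries and a dashed line for an even spread. All 3 lines lie above the dashed line at the low end of the lists and near 0 above the 60th percentile, around medians of 17.1, 20.1 and 20.0.

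Few niche-only regions lay over gene starts. In all, 41 (2.25%) lay over the start of a protein-coding gene, against 2.31% of comparison regions and 12.5% of all regions. A start here is that of any RefSeq transcript, and can lie inside the gene. Ecm1 stood first of these by strength (chr3:95739271-95739932), with peaks of 576, 394 and 571 bp in 4T1 niche replicates 1, 2 and 3 and a fold enrichment of 4.88, 5.69 and 4.58. The CT26 niche held it in replicate 1 alone, over 224 bp, and no CT26 distal library did. A second niche-only region lay at Ecm1, downstream of this start (chr3:95732801-95734313). It held 1449, 227 and 204 bp in 4T1 niche replicates 1, 2 and 3, so it was small in replicates 2 and 3. Both places had a peak in all 3 4T1 niche libraries and in no 4T1 distal library. Hrh1 held 3 niche-only regions, of which 1 lay over the start of a transcript that begins inside the gene (chr6:114458216-114458728). That region measured 513, 406 and 483 bp at a fold enrichment of 4.46, 4.40 and 4.37, with no peak in any CT26 library. The 3 niche replicates thus gave nearly the same value at this Hrh1 start.

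The other starts among the 12 strongest belonged to genes of varied roles. Timp1, an inhibitor of matrix metalloproteases that lies inside Syn1 (chrX:20869799-20870540), held 368, 599 and 599 bp in the 4T1 niche replicates and nothing in CT26 libraries. Casp4 (chr9:5308564-5309477) held 379, 535 and 777 bp, and the antimicrobial peptide gene Camp (chr9:109849360-109849850) 319, 491 and 296 bp, and no CT26 library called either region. The start of Pxdn, a peroxidase that cross-links collagen IV (chr12:29937998-29938853), held 747, 640 and 751 bp, also without a CT26 call. Camp varied most of these in strength, at a percentile of 0.5, 49.4 and 26.8. By contrast, the start of Abr, which encodes a GTPase-activating protein, was called in 2 CT26 niche and 2 CT26 distal libraries. The rest of the 12 were Smim14, Arap1, the meiotic mismatch repair gene Msh4, the MAP kinase scaffold gene Ksr1 and Tmem45a, at a mean peak length of 212.7 to 528.7 bp. Weaker starts, below the 12 strongest, included Ifi203 (chr1:173942448-173942863; 399, 408 and 416 bp) and the acute-phase protease inhibitor Serpina3n (205, 586 and 189 bp). They also included the Wnt receptor gene Ror2, the endothelin receptor gene Ednra, the microfibril gene Mfap2 and the mesenchymal transcription factor genes Twist1, Tcf21 and Tbx18, which were picked from the 40 named genes after their values were seen.

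**Figure D2:**
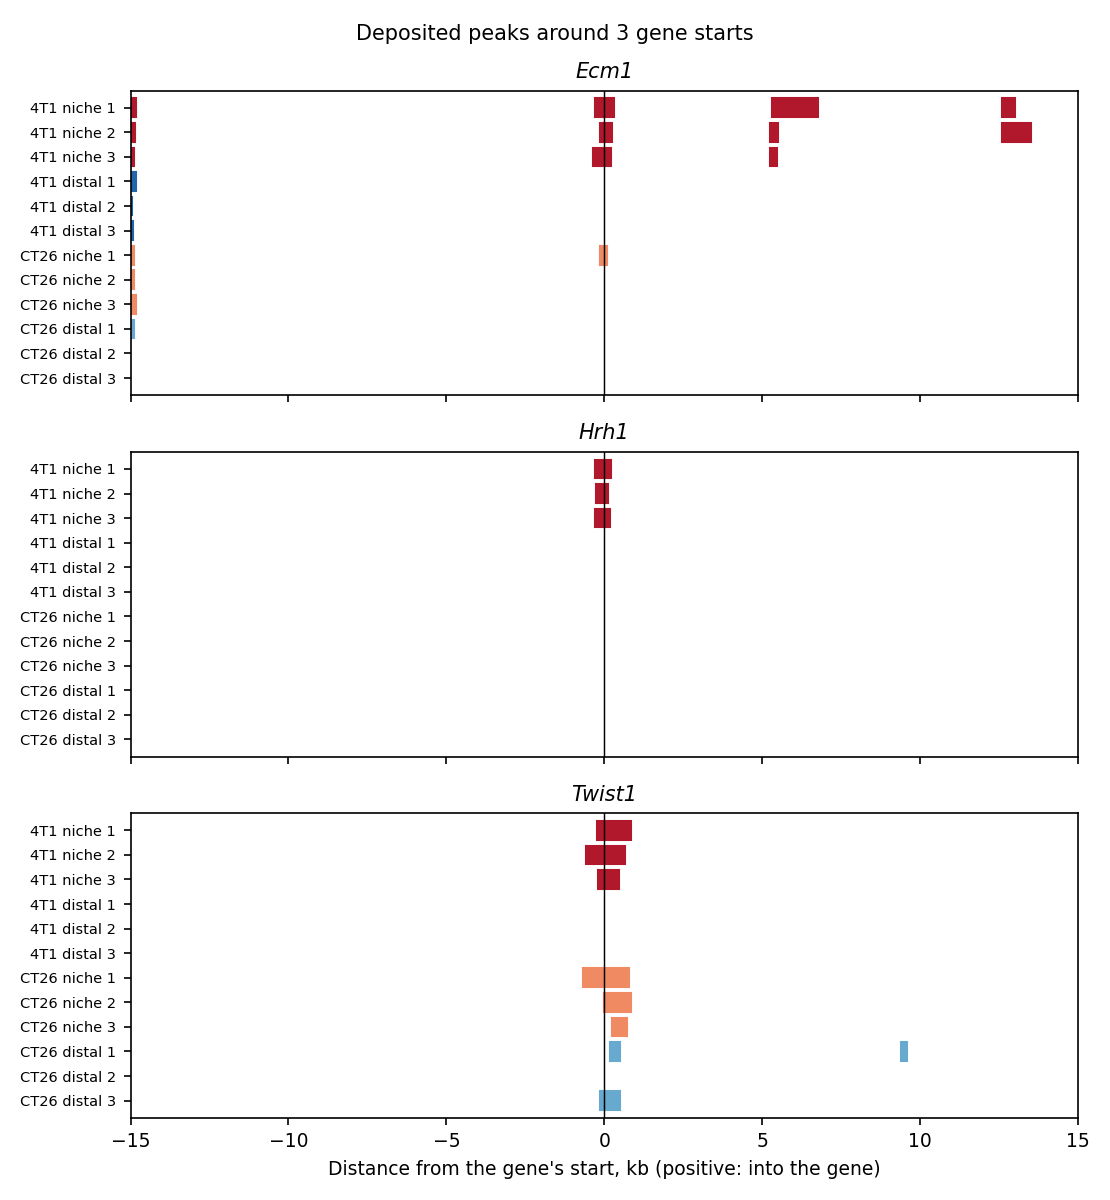
Deposited peaks (coloured bars) within 15 kb of the starts of Ecm1, Hrh1 and Twist1, by distance from the start in kb, with a row for each library and the 4T1 niche at the top. At Ecm1 and Hrh1 the start is covered in the 3 4T1 niche libraries and in 1 and 0 CT26 libraries, while at Twist1 it or the bases next to it are covered in 5 of 6 CT26 libraries as well. The Hrh1 start shown lies inside the gene.

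The TGF-beta and epithelial-mesenchymal transition (EMT) genes held niche-only regions more often than protein-coding genes at large. TGF-beta ligands bind the receptors Tgfbr1 and Tgfbr2, which activate Smad3, and Snai1, Twist1, Twist2 and Zeb1 are transcription factors that repress epithelial genes in EMT. Of 21627 protein-coding loci, taken as the gene and 10 kb on each side, 1359 held a niche-only region (6.28%). Of the 18 loci of this list, 9 did: the ligand Tgfb1, the receptors Tgfbr1 and Tgfbr2, the signal transducer Smad3, the factors Snai1, Twist1, Twist2 and Zeb1, and the intermediate filament gene Vim. No locus of the list held a comparison region, which 10.8% of all loci did. Long loci hold more regions: of the 5407 longest loci, 14.3% held a niche-only region, and 5 of the 9 listed loci among these and 4 of the other 9 did. These counts are a description, since earlier results of the same libraries were known when the list was kept. They fell to 1 of 18, Smad3, both with lists of equal length (1.52% of all loci) and at a −log10 q of at least 5 (3.35% of all loci).

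The TGF-beta and EMT regions lay mostly inside the genes, at mean percentiles from 11.1 (Vim) to 45.4 (Smad3). Twist2, Zeb1 and Twist1 stood at 18.2, 18.6 and 19.1, near the median of 18.7 for all niche-only regions. Tgfbr1, Tgfb1, Tgfbr2 and Snai1 stood at 21.3, 29.6, 34.7 and 36.1. At Tgfbr2 the region (chr9:116152887-116153262) held 242, 374 and 370 bp in 4T1 niche replicates 1, 2 and 3, at a fold enrichment of 3.34, 5.07 and 5.00. At Tgfbr1 (chr4:47399758-47400885) it held 546, 919 and 821 bp at 3.66, 3.83 and 3.57, and CT26 distal replicate 1 held 220 bp there. Smad3 had the strongest by rank (chr9:63747699-63748020), at a percentile of 50.7, 39.8 and 45.8 with peaks of only 263, 201 and 322 bp. The Snai1 region lay 9606 bp from the gene and the Tgfb1 region 5085 bp from Tgfb1, inside the neighbouring gene Ccdc97. The Twist1 region (chr12:33956986-33958521), over the gene's start, was the most widely shared: 1064, 1232 and 653 bp in the 4T1 niche, 1473, 862 and 466 bp in the CT26 niche, and 320, 0 and 635 bp in the CT26 distal libraries. In CT26 none of the 18 loci passed in the limma comparison of niche and distal libraries described further on, and 9 had a positive change (median 0.01 on the log2 scale). AT2 samples can carry other cells, and the loci of the fibroblast marker list held 9.4 to 10.6 kb under peaks in the 4T1 niche and 5.3 to 8.6 kb in 4T1 distal libraries. Of these 11 markers, Dcn, Lum and Thy1 had no peak in any 4T1 library, and Col3a1 and Tcf21 had one in the niche and none in distal libraries, of which Tcf21 held a niche-only region. In CT26 the fibroblast loci held 6.8 to 11.5 kb in niche and 3.9 to 5.2 kb in distal libraries, and all 7 tested had a positive change (median 0.56 on the log2 scale), none of which passed. The lengths in kb over the fibroblast loci were not scaled. In all, 4T1 niche lists covered 49.1 to 51.9 Mb and 4T1 distal lists 42.0 to 45.7 Mb. CT26 niche lists covered 38.2 to 44.7 Mb and CT26 distal lists 31.4 to 34.4 Mb. The part of other cells in the TGF-beta and EMT regions was not tested.

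**Figure D3:**
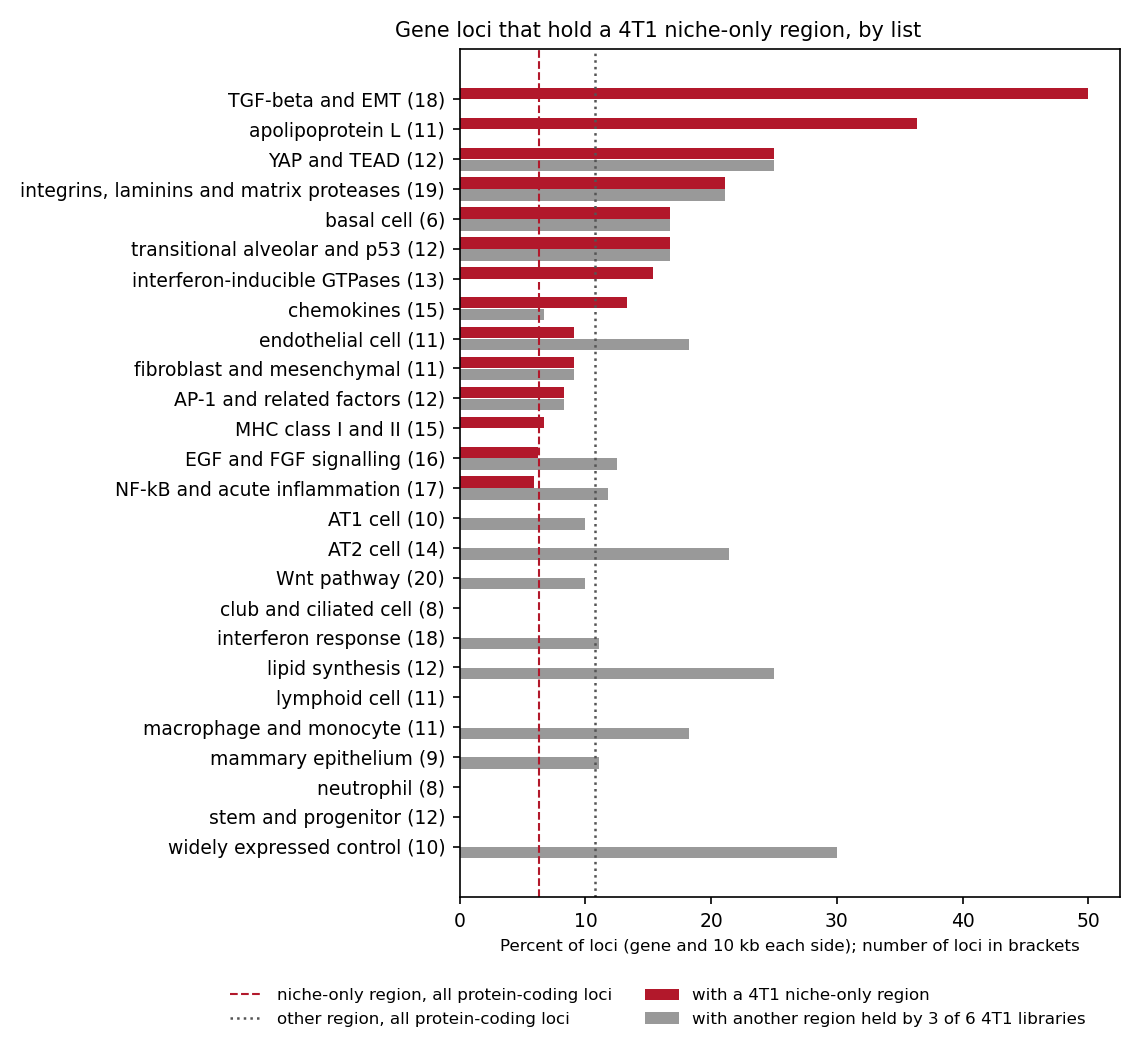
Percent of the loci of each gene list that held a niche-only region (red bars) or a comparison region (grey bars), with the share over all protein-coding loci as a dashed line (6.28%) and a dotted line (10.8%). The TGF-beta and EMT list reaches 50.0% and the apolipoprotein L list 36.4%, both without a comparison region, while the AT2, AT1, interferon response and Wnt lists hold no niche-only region.

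The apolipoprotein L cluster and the chemokine gene Ccl2 held niche-only regions, which CT26 libraries rarely called. The same was true of niche-only regions at large, 66.0% of which no CT26 library called. The exclusion left out regions that most CT26 niche and few CT26 distal libraries held. Few CT26 calls are therefore partly fixed by the rule. Apolipoproteins L are lipid-binding proteins of host defence in humans, encoded in mice by a cluster on chromosome 15. Of 11 loci, 4 held a niche-only region (36.4%, against 6.28% of all loci). These were Apol6, Apol8, Apol9b and Apol10b, at 4 places since Apol8 and Apol9b share one. The region near Apol6, inside the neighbouring gene Mb (chr15:77036591-77038198), held 1425, 1596 and 1458 bp in the 4T1 niche replicates at a fold enrichment of 3.93, 3.99 and 4.29. The region between Apol8 and Apol9b (chr15:77740598-77741931) held 1302, 1303 and 1253 bp. Both were wide and even across the 4T1 niche replicates, and neither was called in a CT26 library. Over the whole Apol6 locus, 2.83, 3.40 and 2.75 kb lay under peaks in the 4T1 niche replicates, 0, 0.329 and 0.207 kb in the 4T1 distal replicates, 0.422, 0.438 and 0 kb in the CT26 niche and none in CT26 distal libraries. Over the 11 loci together, 10.3 to 12.3 kb lay under peaks in the 4T1 niche and 1.3 to 2.4 kb in 4T1 distal libraries. In CT26 they held 1.8 to 4.8 kb in niche and 0.6 to 1.5 kb in distal libraries. Of the 8 loci tested in CT26, 6 had a positive change (median 0.22 on the log2 scale), and none passed in the limma comparison. With lists of equal length none of the 11 loci held a region, and with a flank of 2 kb in place of 10 kb 2 did.

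Ccl2, a chemokine that attracts monocytes, had niche-only regions on either side of the gene. The stronger (chr11:82032786-82033421, 2156 bp from the gene) held 583, 579 and 438 bp in the 4T1 niche replicates at a fold enrichment of 3.63, 4.73 and 5.07. The other (chr11:82038521-82039397, 1069 bp from Ccl2 and 6315 bp from Ccl7, another monocyte chemokine) held 877, 754 and 651 bp. Neither was called in a CT26 library, and the nearest 4T1 distal peaks lay 107991 and 102015 bp away, so the whole Ccl2 neighbourhood was free of peaks in 4T1 distal cells. Ccl2 and Ccl7 were the 2 of 15 chemokine loci with a niche-only region (13.3%, against 6.28% of all loci), and they share the second region. In the list of NF-kB and acute inflammation genes the share was 1 of 17 (5.88%), near that of all loci. That locus was Tnfaip2, which tumour necrosis factor induces. Its region, 68 bp from the gene (chr12:111455086-111456349), held 1067, 840 and 969 bp in the 4T1 niche and 265 bp in CT26 niche replicate 1.

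Few loci of the interferon-related lists held a niche-only region. None of the 18 interferon response loci held a niche-only region, against 6.28% of all loci. Of 13 loci of interferon-inducible GTPases, which act against intracellular pathogens, Gbp8 and Irgm1 did (15.4%). With so few loci, neither share can be told apart from that of all loci, and the difference between the lists was not tested. Outside these lists, the interferon-inducible gene Ifi203 held a region over a start and Oas1e held one in its locus. The Gbp8 region, 8528 bp from the gene (chr5:105062137-105062895), held 759, 507 and 526 bp in the 4T1 niche replicates and no CT26 library called it. The Irgm1 region was among the weakest, at a mean percentile of 2.3. Of the 15 MHC class I and II loci, H2-D1, a class I heavy chain gene, was the 1 with a niche-only region (6.67%, near the share of all loci). It was held over 283, 388 and 320 bp. The strongest of all niche-only regions lay inside H2-DMb2, a gene of class II peptide loading that is outside that list (chr17:34150083-34150316), at a percentile of 75.8, 76.7 and 69.7 but with peaks of 219, 223 and 192 bp.

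Adamts2 and other matrix and adhesion genes held further regions. Adamts2, a protease that trims procollagen, held 3, the widest by mean peak length being of 975, 747 and 919 bp in the region chr11:50669546-50670566, which CT26 niche replicate 1 held as well, and over its locus 3.58, 4.07 and 4.07 kb lay under peaks in the 4T1 niche against 0.837, 1.01 and 0.596 kb in the 4T1 distal replicates. In all, 4 of 19 loci of integrins, laminins and matrix proteases held a niche-only region, as many as held a comparison region, and Adamts4 and the integrin gene Itga3 were among them with 1 each. The YAP and TEAD list had 3 of 12 (Lats2, Wwtr1 and Yap1), again as many as with a comparison region. In the transitional alveolar list they lay in Itgb6, an integrin subunit that activates TGF-beta, and Plaur, the urokinase receptor, and in the growth factor list in Fgf2, at a percentile of 18.7, 54.6 and 41.1, which was 1 of its 16 loci (6.25%, against 6.28% of all loci). One region each fell to Fosl2 of the 12 AP-1 factors (8.33%), Krt17 of the 6 basal cell markers (16.7%) and Pecam1 of the 11 endothelial markers (9.09%). With 1 locus each, these shares cannot be told apart from that of all loci. The 14 AT2, 10 AT1, 12 stem and progenitor, 20 Wnt and 12 lipid synthesis loci held none, nor did the neutrophil, macrophage, lymphoid, club and ciliated, mammary and control lists. The endothelial loci held 23.8 to 29.0 kb under peaks in the 4T1 niche and 18.4 to 20.8 kb in 4T1 distal libraries, and the neutrophil loci 4.4 to 5.0 kb and 3.6 to 4.0 kb, with S100a9 at 0 in both groups, Retnlg and S100a8 at 0 in the niche and Mpo at 0 in distal libraries. The loci of the mammary list, which 4T1 cells could carry, held 21.7 to 24.3 kb in the 4T1 niche and 16.4 to 21.3 kb in 4T1 distal libraries, with Csn2 and Csn3 at 0 in both. The control loci held 27.0 to 30.7 kb and 26.8 to 28.7 kb. The lengths over these marker loci were not scaled either, and the 4T1 niche lists covered more in all. The part of other cells in the niche-only regions was not tested.

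Some genes held several niche-only regions. Eml1, a microtubule-binding protein gene, Slco2a1, a prostaglandin transporter gene, and the zinc finger gene Zfp469 had 4 each, and 18 loci had 3, most of them long. Among the shorter of these, Has1, a hyaluronan synthase, had 3 of the 6 regions in its 41.9 kb locus, and Hrh1 and the heparan sulfatase gene Sulf1 had 3 of 5. The Sulf1 locus held 2.50, 3.16 and 3.38 kb under peaks in the 4T1 niche, 0.299, 0.456 and 0.291 kb in 4T1 distal, 1.55, 0.915 and 0.265 kb in CT26 niche and 1.13, 0 and 0.28 kb in CT26 distal replicates, so the 4T1 groups were far apart and the CT26 groups overlapped. The Hedgehog effector gene Gli2 and the transcriptional repressor gene Bach2 also had 3. Most niche-only regions stood alone, and 97 (5.32%) had another within 10 kb.

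The strongest and the widest niche-only regions were different ones. After H2-DMb2, the strongest lay inside or nearest to the histone demethylase gene Kdm4a (percentiles of 66.0, 63.1 and 67.2), M1ap, the galectin gene Lgals1, the amino acid transporter gene Slc3a1, the actin-binding protein gene Rai14, Olfr223, Mterf1b, the cholesterol exporter gene Abca1, Bpifb5, the focal adhesion gene Lpp and the splicing gene U2surp. These 12 lay 1570 to 12868 bp from the nearest 4T1 distal peak, and the Rai14 region was called in 3 CT26 niche and 2 CT26 distal libraries. The widest lay inside Hhipl1 (chr12:108307671-108310049; 1858, 1402 and 2379 bp) and inside the collagen receptor gene Ddr2 (chr1:170109950-170112204; 1483, 1995 and 1778 bp), neither called in CT26. The next were near Trdmt1, inside Zfp469 and far from Mettl11b, at a mean of 1683, 1556.7 and 1513.7 bp, and all 5 had a mean percentile between 13.6 and 22.7.

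Positions were taken against protein-coding genes only. Of niche-only regions, 50.8% lay inside such a gene, 42.0% outside them by more than 1 kb and 4.88% within 1 kb of a gene end. The other 2.25% lay over a protein-coding start. Comparison regions had 54.6%, 37.9% and 5.16%, and all regions 46.5%, 33.9% and 7.08%. Beyond 50 kb of any protein-coding gene lay 13.2% of niche-only, 11.7% of comparison and 11.0% of all regions. Chromosome 11 held the most niche-only regions, 165 of its 5756 regions, and the X chromosome the fewest, 26 of 2207. Hairpins of 11 microRNAs lay within 2 kb of a niche-only region, with Mir5110 inside one, Mir208a 458 bp, Mir125b-1 680 bp and Mir199a-1 1166 bp away.

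In CT26, niche libraries held more of the 4T1 niche-only regions than distal libraries did on average, with overlap between the groups. The CT26 niche replicates held 329, 155 and 107 of the 1822 regions and the CT26 distal replicates 99, 42 and 127, so niche replicate 3 lay below distal replicate 3. The means were 197 ± 117 in the CT26 niche and 89.3 ± 43.3 in CT26 distal libraries (SD, n = 3 each), and a two-sided exact permutation test over libraries gave p = 0.2, where 0.1 is the smallest this design allows. The excess of niche over distal libraries was 107.7 regions, and 41.7 without CT26 niche replicate 1 (exact permutation p = 0.4). The exclusion in the rule removed regions because the CT26 niche held them, which lowers the CT26 niche counts. Over the 2170 regions before the exclusion, the CT26 niche replicates held 645, 403 and 346 and the distal replicates 130, 48 and 161. These groups did not overlap, the niche mean was 4.11 times the distal mean, and the exact permutation p was 0.1.

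CT26 niche lists were also longer, so the same counts were taken over the comparison regions. There the CT26 niche replicates held 1083, 739 and 731 and the distal replicates 563, 286 and 707, a ratio of means of 1.64 (two-sided exact permutation p = 0.1). Each library's share of the 2170 regions divided by its share of the comparison regions was 0.905, 0.828 and 0.719 in the CT26 niche and 0.351, 0.255 and 0.346 in CT26 distal replicates (two-sided exact permutation p = 0.1, the smallest possible). Relative to other regions of like 4T1 support, 4T1 niche-only regions before the exclusion were thus called 2.58 times as often in CT26 niche as in CT26 distal libraries, with no overlap between the groups. This ratio was added after the data were seen.

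**Figure D4:**
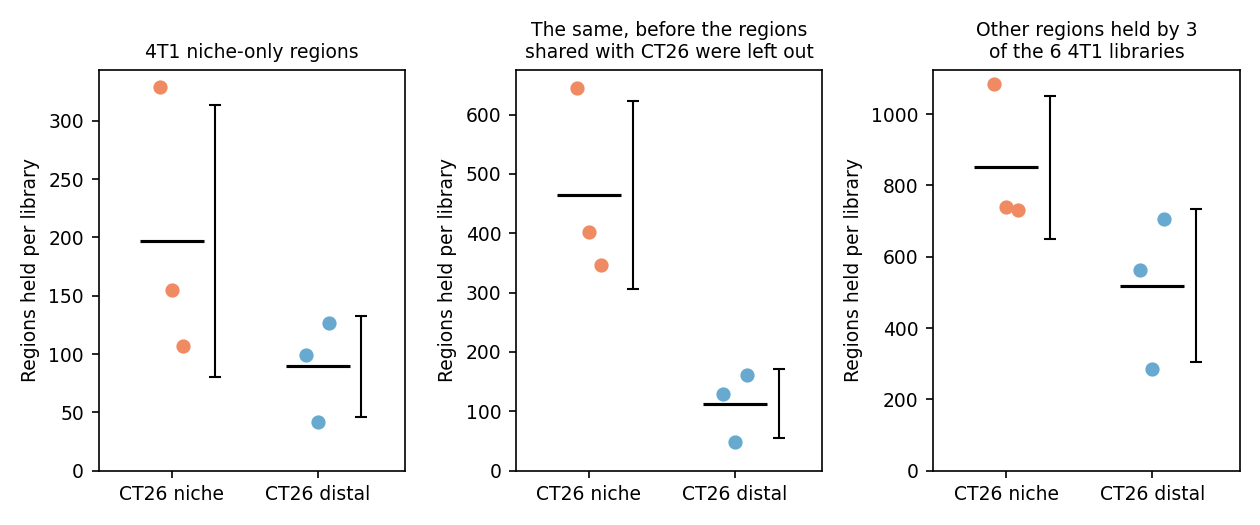
Regions held in each CT26 library (points), with the mean (horizontal line) and the SD beside it, for the 1822 niche-only regions, the 2170 before the exclusion and the 3296 comparison regions. CT26 niche and distal libraries overlap in the left panel (107 against 127) and are apart in the middle (346 against 161) and right panels (731 against 707).

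Region by region, most niche-only regions were not seen in CT26 at all. No CT26 library called 1202 of the 1822 (66.0%), a share that the exclusion raises. Over the 2170 regions before the exclusion it was 55.4%, against 36.7% of comparison regions. A single CT26 niche library and no distal library called 419 (23.0%, against 17.8% of comparison regions). Of these, 248 came from niche replicate 1, 109 from replicate 2 and 62 from replicate 3. CT26 libraries of both sites called 127 (6.97%, and 9.12% before the exclusion), against 24.5% of comparison regions. CT26 distal libraries alone called 74 (4.06%), against 11.9% of comparison regions. All 6 CT26 libraries called 3, which lay inside Riiad1, over the start of the zinc finger gene Zfp804a and 58418 bp from Ankfn1. For these the 4T1 distal libraries stood apart from the other 9. No niche-only region was held by all 3 CT26 distal and no CT26 niche libraries, as 0.136% of all regions were. Before the exclusion, 82 of the 2170 (3.78%) were niche-only in CT26 as well, against 1.97% of comparison regions and 1.56% of all regions. Where CT26 lists called the 1822 regions, the peaks were weak, at a median percentile of 9.7 to 11.7 in niche and 7.1 to 9.8 in distal lists.

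**Figure D5:**
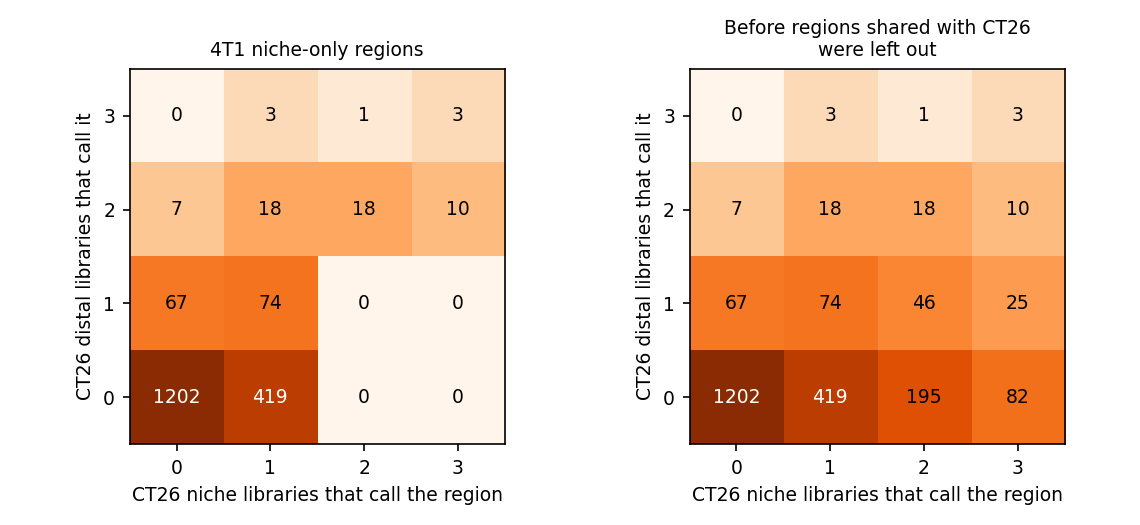
Niche-only regions by the number of CT26 niche libraries (horizontal axis) and CT26 distal libraries (vertical axis) that call them, after (left) and before (right) the regions shared with CT26 were left out. The empty corner at 2 or 3 niche and 0 or 1 distal libraries on the left is made by the rule, and holds 82 regions at 3 niche and 0 distal on the right.

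At the level of gene loci, CT26 gains near niche-only regions included Gbp8, Enox1, Hoxa2, Oas1e and Mchr1. The length under peaks in the gene and 10 kb on each side, scaled to equal covered length, was compared between CT26 niche and distal libraries with limma over 16819 loci, and the threshold was a p of 0.05 after Benjamini-Hochberg adjustment across all of them. Higher in the CT26 niche were 88 loci (0.523%) and lower 25 (0.149%). Of the 1358 tested loci with a niche-only region, 13 were higher (0.957%) and 1, Sorcs1, was lower (0.0736%). The other higher loci were Mybl2, Col17a1, Gjb5, Fkbp5, Pla2g4f, Rab7, Cacna1c and Arhgap26. In 7 of the 13, no CT26 niche library called the niche-only region itself, so the CT26 gain lay elsewhere in the locus, and in the other 6 a single CT26 niche library called one. The count rested on the scaling and on the libraries: without scaling, which shifts the median log2 change of all loci by 0.22, 247 loci with a niche-only region were higher and 1 lower, and without CT26 niche replicate 1 or 2 the 13 became 7 or 8. Without CT26 niche replicate 2, no locus with a niche-only region was lower.

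Gbp8, a guanylate-binding protein gene, held 2.12, 1.66 and 1.88 kb under peaks in the 4T1 niche, 1.05, 1.06 and 1.23 kb in the 4T1 distal, 0.91, 0.807 and 0.819 kb in the CT26 niche and none in the CT26 distal replicates. The 4T1 values chose its region and are a description, and the CT26 sites did not overlap (log2 change 1.47 ± 0.10 SE, limma adjusted p = 6.2e-05). Enox1, a cell surface oxidase gene, held 1.33, 1.11 and 1.81 kb in the CT26 niche and none in CT26 distal replicates (limma adjusted p = 6.2e-05), beside 2.14, 1.87 and 2.16 kb in the 4T1 niche and 0.522, 0.622 and 0.524 kb in 4T1 distal replicates. Mchr1, a receptor of melanin-concentrating hormone with a niche-only region over its start and another 1489 bp away, held 0.572, 0.329 and 0.244 kb in the CT26 niche and none in CT26 distal replicates (limma adjusted p = 0.0278), and 1.41, 1.41 and 1.29 kb in the 4T1 niche and none in 4T1 distal replicates. Where all libraries of a group lack peaks, the group adds no spread to the pooled estimate, so these p can be too small. With lists of equal length Gbp8 no longer passed, at a change of nearly the same size (log2 change 1.43, limma adjusted p = 0.112). With a flank of 2 kb Mchr1 did not (limma adjusted p = 0.527), nor without CT26 niche replicate 1 (0.0691) or 2 (0.0624). Mybl2, a cell cycle transcription factor gene with peaks in every library, held 1.83, 1.59 and 2.40 kb in the CT26 niche and 0.523, 0.494 and 0.524 kb in CT26 distal replicates (log2 change 1.12 ± 0.16 SE, limma adjusted p = 0.0121). Fkbp5, a glucocorticoid-induced immunophilin gene, held 5.98, 4.67 and 4.40 kb in the CT26 niche and 3.21, 2.41 and 2.73 kb in CT26 distal replicates (0.50 ± 0.09, limma adjusted p = 0.0382). Sorcs1, a sorting receptor gene, held 1.59, 0.843 and 0.892 kb in the CT26 niche and 2.37, 1.71 and 2.28 kb in CT26 distal replicates (-0.97 ± 0.14, limma adjusted p = 0.0143). Sorcs1 no longer passed with lists of equal length, at a larger change (-1.82, limma adjusted p = 0.226), or without CT26 niche replicate 2 (-0.88, limma adjusted p = 0.0544).

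The genes with niche-only regions at their start or from the lists mostly had no such change in CT26. Over all 1358 loci the median CT26 log2 change was 0.008 and 52.1% were positive, beside -0.036 and 42.2% over all loci tested. The changes at Ecm1 (0.17 ± 0.24 SE, limma adjusted p = 0.738), Hrh1 (0.30 ± 0.32, limma adjusted p = 0.635) and Adamts2 (0.62 ± 0.22, limma adjusted p = 0.17) did not pass, and these p do not show that the sites were alike. Tnfaip2 came nearer, with 1.27, 0.874 and 0.805 kb in the CT26 niche and 0.353, 0.281 and 0.565 kb in CT26 distal replicates (0.60 ± 0.15, limma adjusted p = 0.0844). Ccl2 and Casp4 had no peak in any CT26 library, so neither site could be higher there. Whether the niche effect differed between 4T1 and CT26 was not tested, since the 4T1 values chose these regions.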

How the data were processed

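Broad peaks were deposited by the authors, a list for each of 12 libraries, in GRCm38 coordinates. Per the submitters' processing notes, MACS2 and bedtools were used, with neither versions nor settings stated there, and nothing is said of aligner or filters. The deposited lists give each peak's start and end, a fold enrichment over background (a ratio within the library), and a −log10 p and −log10 q, the lowest −log10 q being 1.0. The deposited score column was not used. Read counts are not in the lists, so depth and counting error are unknown here.

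Peaks on the 19 autosomes and X were merged at an overlap of at least 1 bp. Lengths under peaks for protein-coding genes of RefSeq GRCm38.p6 with 10 kb on each side were scaled to the mean covered length, 500 bp was added, and log2 values were modelled in limma 3.58.1 (R 4.3.3; means of the 4 groups, 8 residual degrees of freedom, eBayes with trend), keeping loci that had peaks in 3 or more libraries; a log2 change depends on the added length. Such loci share regions with their neighbours and are not independent. Exact permutation tests used scipy 1.17.1 in Python 3.11.15. The limma script and the motif search were tested on simulated data. The RefSeq tables gave a start window for 79.9% of protein-coding genes. No genome was at hand, so sequences of regions away from starts were not read.

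Named regions are the 12 strongest, the 5 widest, the genes with the most regions (ties kept), those held by all 6 CT26 libraries, the 12 strongest over a protein-coding start, and each gene of 26 lists with a region in its locus; gene models (Gm, Rik, LOC) were passed over. CT26 loci that passed and weaker gene starts were named after their values were seen. The regions and lists were chosen with earlier results of these data known. Samples are pools of lungs stated to be independent.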

Additional observations from a re-analysis of the deposited data

Results flagged for a closer look

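At the Vim locus the difference between sites had opposite signs in the models after scaling, but the 4T1 side of this was used to choose the locus. A niche-only region of 794, 493 and 332 bp lies 277 bp from the gene, so higher 4T1 niche values are largely fixed by the rule and are a description. Vim encodes the intermediate filament vimentin. Its scaled log2 length under peaks was 0.14 ± 0.07 (SE) higher in 4T1 niche than in 4T1 distal libraries and -0.20 ± 0.07 in CT26 niche relative to CT26 distal libraries (limma adjusted p = 0.163), with no overlap between the sites in either model. Before scaling, the locus held 3.04, 2.88 and 2.72 kb in the 4T1 niche and 2.22, 2.23 and 2.18 kb in 4T1 distal replicates, and 2.22, 2.17 and 2.24 kb in the CT26 niche and 2.18, 2.10 and 2.17 kb in CT26 distal replicates, so the lower CT26 niche value arose with the scaling. The difference between the models was not tested.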

How the results depend on the processing

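The number of niche-only regions (1822) became 856 at a −log10 q of at least 5 and 387 with lists of equal length, and 2195 to 2982 without each 4T1 library in turn, where fewer libraries have to meet the rule. At a −log10 q of at least 5, 1 TGF-beta and EMT locus and 1 apolipoprotein L locus held a region, and 5.26% of start windows held AP-1 letters. With lists of equal length these loci numbered 1 and 0 and the AP-1 share was 22.2%, and a flank of 2 kb left 2 apolipoprotein L loci. The share at the end of a protein-coding gene was 19.8% within 5 kb, against 7.14% within 1 kb, a wider bound by construction. The excess of regions held in CT26 niche over distal libraries kept its sign under every alternative run, but the 107.7 regions became 14.67 with lists of equal length (exact permutation p = 0.4) and 41.67 to 152.7 without each CT26 library in turn, lowest without CT26 niche replicate 1. Of all CT26 loci, 88 were higher and 25 lower, and 13 and 1 of those with a niche-only region. These 4 counts were 2014, 16, 247 and 1 without scaling, 57, 26, 3 and 0 with lists of equal length, and 220, 89, 29 and 2 with flanks of 50 kb. Without each CT26 library in turn they were 32 to 106, 6 to 24, 7 to 16 and 0 to 1. The cause of these changes was not tested.

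Same-numbered niche and distal libraries had small correlations of deviations, of 0.089, 0.038 and 0.029 in 4T1 and 0.011, 0.018 and -0.044 in CT26. Other pairs of libraries had -0.06 to 0.024 in 4T1 and -0.093 to 0.092 in CT26. These values do not settle whether replicate numbers pair the libraries. With the replicate number as a block, the 4 counts of CT26 loci were 8, 0, 4 and 0. With same-numbered CT26 libraries as pairs, the excess of 107.7 niche-only regions in niche over distal libraries had a two-sided exact permutation p of 0.5, and 0.25 before the exclusion, the smallest possible. The alternatives for the gene lists, AP-1 letters and single loci were added after the data were seen. Depth is unknown, so weak peaks missing from a list cannot be told apart from closed chromatin.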
